A study of Mus musculus with 8 samples.

Results

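Expression of 10 Wnt pathway genes was followed in mouse corpus callosum, a tract of myelinated fibers between the hemispheres. The genes were chosen by symbol, and all 10 were found among the 25239 gene symbols of the deposited table. They are the ligand *Wnt7b*, the receptors *Ror1* and *Ror2*, the secreted modulators *Sfrp1* and *Dkk3*, the membrane inhibitor *Apcdd1*, the feedback genes *Axin2* and *Nkd1*, and the transcription factors *Lef1* and *Tcf7l2*. All 10 passed the filter of a mean of 0.1 CPM or more that left 18123 genes for testing. CPM is the deposited unit, reads divided by a library's effective size and scaled so that the values of a library summed to 966202 to 1022161. Polyadenylated RNA was sequenced in 8 libraries from mice labelled C57BL/6 (C57BL/6J in the study's methods) that were 8 to 12 weeks old when used. Of these libraries, 4 carried the label WT (wild type) and 4 the label TRPA1-KO, a line that lacks TRPA1 in every cell and was backcrossed to C57BL/6J. Each label had 1 sham library, taken on day 14, and 3 libraries from days 7, 10, and 14 after bilateral common carotid artery stenosis (BCAS). In BCAS a microcoil narrows each common carotid artery, which reduces blood flow to the brain, and sham mice had the same anesthesia without coils. No label, operation, and day had a second library, so the 3 days stood in as replicates of a BCAS group and their spread holds day as well as animal.

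Wnt ligands bind Frizzled receptors with the co-receptors Lrp5 and Lrp6, which stops the destruction of beta-catenin so that it can join TCF/LEF factors on target genes. Cells limit the signal through targets that act back on it, such as Axin2, and through secreted or membrane-bound inhibitors. In the brain, Wnt7a and Wnt7b from neural cells instruct endothelial cells to form the blood-brain barrier, and beta-catenin with Tcf7l2 times the maturation of oligodendrocyte precursors. Ror receptors bind Wnt5a-type ligands and mostly signal without beta-catenin.

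The depth was 7896071 to 12952093 reads per library, and 3 reads, the floor used here, corresponded to 0.235 to 0.378 CPM. *Trpa1* itself went against the genotype labels. The libraries labelled WT held 1 *Trpa1* read after sham and 0 reads in each BCAS library, and those labelled TRPA1-KO held 10 reads after sham and 11, 3, and 7 reads on days 7, 10, and 14 after BCAS. The table gives 1 value per gene, so it does not show whether these reads lie in a part of the gene that the knockout keeps. Whether the labels were exchanged was not tested, and every direction between labels would turn if they were. Libraries are therefore named by label, and every direction given is one between labels. Markers of myelinating oligodendrocytes (*Mbp*, *Mog*, *Mag*, *Cnp*, and *Mobp*) summed to at least 8259.5 CPM in each library, but cortical excitatory neuron markers summed to 4555 to 6163 CPM and striatal projection neuron markers to 525 to 1376 CPM, so the tissue held neuronal RNA as well. In whole tissue, fewer cells of a type cannot be told apart from less RNA per cell.

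Per kilobase of annotated exon, *Dkk3* stood far above the other members, with a median level of 128 CPM per kb over the 8 libraries. It was followed by *Axin2* (5.39), *Wnt7b* (4.24), *Nkd1* (3.62), *Sfrp1* (3.07), and *Apcdd1* (2.27), and then by *Lef1* (0.603), *Tcf7l2* (0.508), *Ror1* (0.224), and *Ror2* (0.156). Only 3 pairs of neighbours in this order had ranges over the 8 libraries that did not overlap, namely *Dkk3* and *Axin2*, *Apcdd1* and *Lef1*, and *Tcf7l2* and *Ror1*. The Ror receptors were near the limit of detection, with 108 reads of *Ror1* and 45 reads of *Ror2* in all 8 libraries, against 33372 reads of *Dkk3*.

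**Figure D1:**
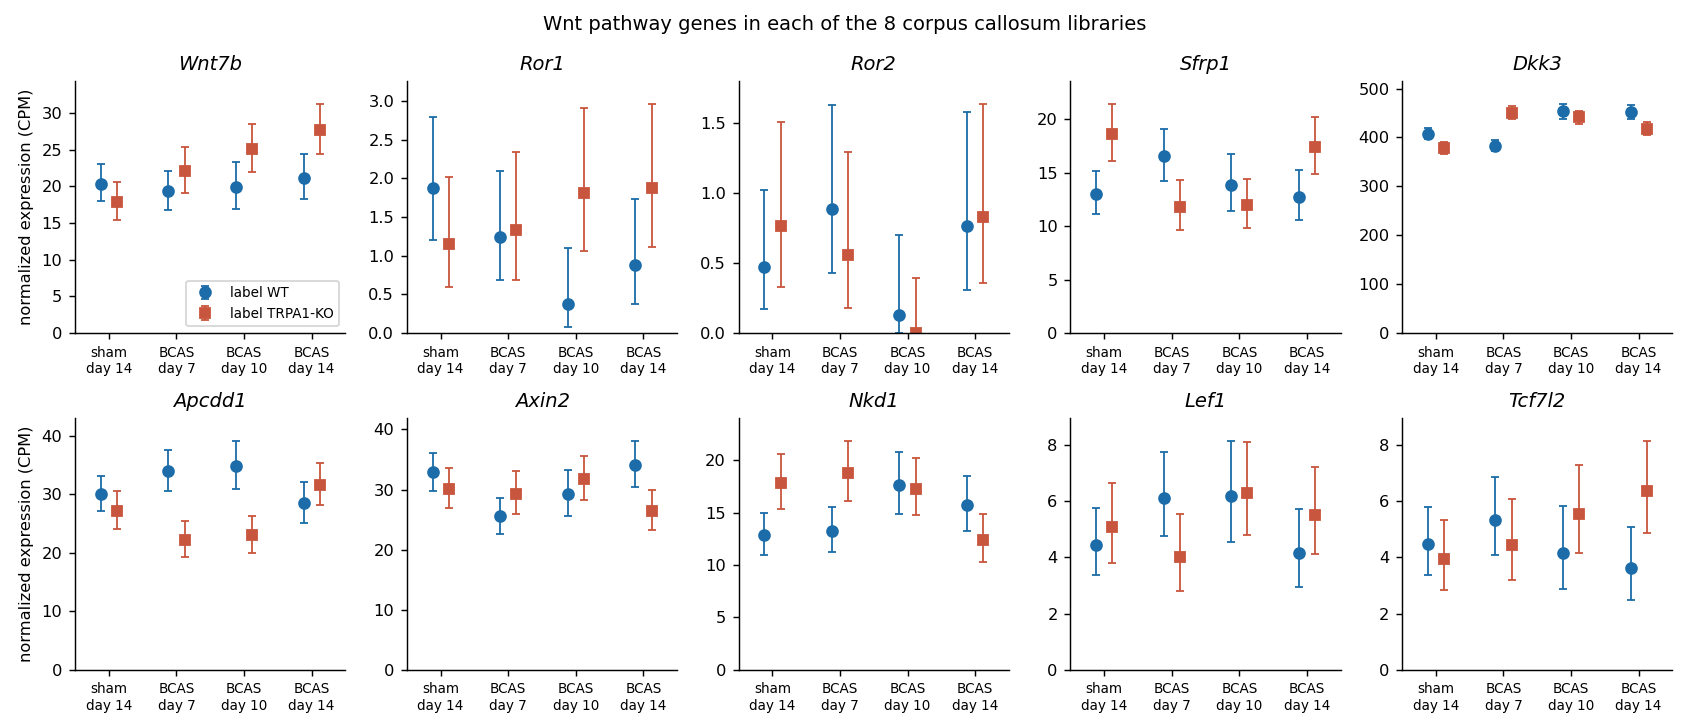
Normalized expression (CPM, linear axes from 0) of the 10 genes in each library, by operation and day (circles, label WT; squares, label TRPA1-KO; bars, 95% Poisson intervals of the read counts, which cover counting error only). *Wnt7b* lies between 22.0 and 27.7 CPM in the BCAS libraries labelled TRPA1-KO and between 17.8 and 21.2 CPM in the other 5 libraries, and the intervals of *Ror1* and *Ror2* are wide.

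The spread over the 8 libraries was above that of read counting in each gene, by different margins. The coefficient of variation (CV) of *Dkk3* was 7.34%, where counting alone gives 1.56%, and that of *Apcdd1* was 16.1%, where counting gives 5.96%. *Tcf7l2* (19.6% and 14.7%), *Lef1* (18.0% and 14.0%), *Ror1* (40.3% and 27.5%), and *Ror2* (60.5% and 42.5%) had a CV closer to the counting limit. From the lowest to the highest library, *Axin2* spanned 1.34-fold, *Apcdd1* 1.57-fold, and *Tcf7l2* 1.75-fold.

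**Figure D2:**
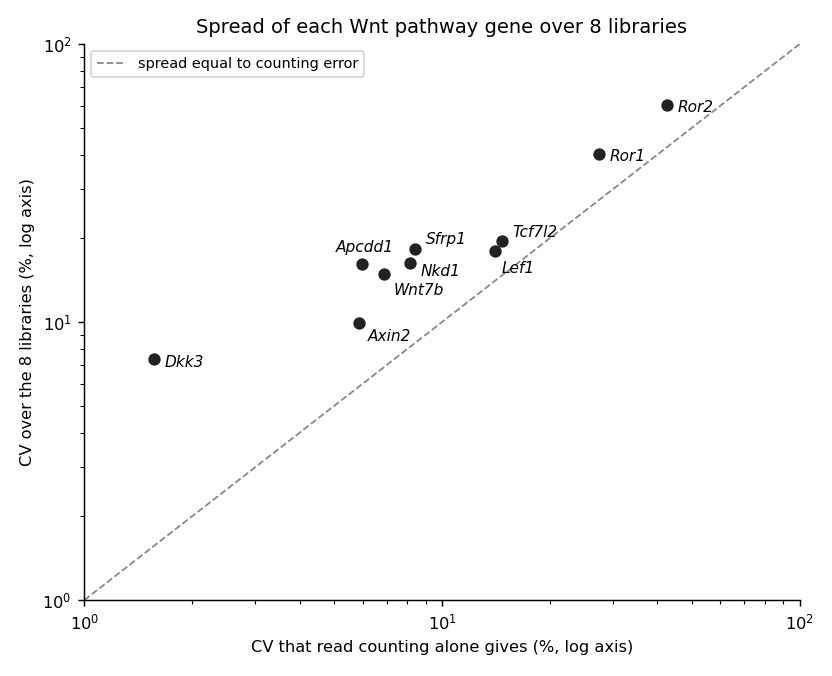
CV over the 8 libraries against the CV that read counting alone gives (both in %, log axes), 1 point per gene, with a dashed line where the 2 are equal. All 10 genes lie above the line, *Dkk3* by the widest ratio (7.34% against 1.56%) and *Lef1* close to it (18.0% against 14.0%).

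The comparison of the labels after BCAS asks how the Wnt genes differed between the labels under hypoperfusion, with 3 libraries against 3. Of the 10 genes, *Wnt7b* and *Ror1* were lower and *Apcdd1* was higher with the label WT at an unadjusted limma p under 0.05, where 4.2% of all genes tested passed that limit (2.4% higher and 1.8% lower). None of the 10 passed after Benjamini-Hochberg adjustment over all genes (0.0166% of all genes did), so none is called changed. The groups did not overlap for *Wnt7b* and *Ror1*, and the same held for 9.21% of all genes. The median difference of the 10 genes was -0.0050 on the log2(CPM + 1) scale, with 5 genes on each side of 0, and over all genes tested the median was 0.00105 and 50.3% lay above 0. Without either day 10 library, none of the 10 genes had an unadjusted p under 0.05.

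*Wnt7b*, the ligand that neural cells supply to brain vessels, lies at chr15:85535437-85582473 on the minus strand of GRCm38. After BCAS it measured 19.3, 19.9, and 21.2 CPM on days 7, 10, and 14 in the libraries labelled WT. Those labelled TRPA1-KO held 22.0, 25.1, and 27.7 CPM on the same days, and the sham libraries held 20.3 CPM (WT) and 17.8 CPM (TRPA1-KO). Every BCAS library labelled TRPA1-KO was above every other library, including both sham libraries, but the closest pair (22.0 and 21.2 CPM) had overlapping 95% Poisson intervals. The share of all genes with such a separation was not computed, and 9.21% did not overlap between the labels after BCAS. The mean of *Wnt7b* was 20.1 ± 0.958 CPM (SD, n = 3) with the label WT against 24.9 ± 2.82 CPM (SD, n = 3) with the label TRPA1-KO. This was a log2 difference of -0.29 with an SE of 0.12 (limma p = 0.0314, adjusted p = 0.983; exact permutation p = 0.1, the smallest that 3 against 3 allows). The library labelled WT was the lower one on each of the 3 days, by -0.18, -0.32, and -0.37 on the log2 scale. Without the day 14 library labelled TRPA1-KO the log2 difference was -0.22, and neither that fit nor DESeq2 on the reads of all libraries gave an unadjusted p under 0.05. An antisense gene, AU022754, overlaps *Wnt7b*, and since the strand setting of the counting is not given, reads of the 2 cannot be told apart. Annotated genes also overlap *Ror1* (Gm12701 and Gm12706), *Lef1* (Gm43352 and Gm42449), *Tcf7l2* (Ppnr), and *Nkd1* (Gm45496), and how such reads were assigned is not given.

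*Ror1*, a receptor tyrosine kinase for Wnt5a-type ligands, lies at chr4:100095791-100444765 on the plus strand. It measured 1.25, 0.378, and 0.878 CPM on days 7, 10, and 14 with the label WT and 1.34, 1.82, and 1.87 CPM in those labelled TRPA1-KO. These values rest on 14, 3, and 8 reads against 12, 17, and 18 reads. The label WT was lower on each day, but the day 7 libraries were nearly level, and the sham libraries lay the other way, at 1.88 CPM (WT) and 1.15 CPM (TRPA1-KO). The mean was 0.834 ± 0.435 CPM (SD, n = 3) against 1.67 ± 0.295 CPM (SD, n = 3), and the log2 difference was -0.57 with an SE of 0.22 (limma p = 0.0297, adjusted p = 0.983; exact permutation p = 0.1). Without the day 10 library labelled WT the log2 difference was -0.38, with an unadjusted p above 0.05. On the reads themselves it was -0.95 by edgeR and -0.98 by DESeq2, both with an unadjusted p above 0.05.

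*Ror2*, the paralog of *Ror1*, lies at chr13:53109312-53286124 on the minus strand. It was at or under the floor in both day 10 libraries, with 1 read labelled WT and 0 reads labelled TRPA1-KO, where the floor of 3 reads is 0.320 CPM and the upper 95% Poisson bound is 0.394 CPM. On the other BCAS days it measured 0.889 and 0.768 CPM in the libraries labelled WT and 0.557 and 0.832 CPM in those labelled TRPA1-KO, and the sham libraries held 0.469 and 0.767 CPM. The groups overlapped, and the 95% interval of the log2 difference was wide, from -0.48 to 0.75, and holds differences of either sign.

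Among the inhibitors within the 10 genes, *Apcdd1* had the largest difference between the labels. Its protein is a membrane glycoprotein that binds Wnt ligands and Lrp5 and is itself a Wnt target in brain endothelium, and the gene lies at chr18:62922231-62961179 on the plus strand. It measured 33.9, 34.8, and 28.4 CPM on days 7, 10, and 14 with the label WT and 22.2, 23.0, and 31.5 CPM in those labelled TRPA1-KO. The sham libraries held 29.96 CPM (WT) and 27.1 CPM (TRPA1-KO). On days 7 and 10 the label WT was 1.53-fold and 1.51-fold higher, and on day 14 the order turned, so the groups overlapped. The mean was 32.4 ± 3.44 CPM (SD, n = 3) against 25.5 ± 5.19 CPM (SD, n = 3), a log2 difference of 0.34 with an SE of 0.14 (limma p = 0.0391, adjusted p = 0.983; exact permutation p = 0.2). Only without a day 14 library was the limma p under 0.05 when 1 library was left out, and without one of the other 4 it was above 0.05.

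Cell type markers were compared in the same libraries. Of the 8 endothelial markers, 7 had a higher mean with the label WT after BCAS, and *Pecam1* (log2 difference 0.33, adjusted p = 0.983, limma) and *Ly6c1* (0.27, adjusted p = 0.983) did not overlap between the labels, as was the case for 9.21% of all genes, and none of the 8 passed after adjustment. The endothelial sum after BCAS was 429 to 471 CPM in the libraries labelled WT and 388 to 434 CPM in those labelled TRPA1-KO, so the groups overlapped, and the highest sum of all 8 libraries was that of the sham library labelled WT (475 CPM). The 6 reactive astrocyte markers (*Gfap*, *Vim*, *Serpina3n*, *Lcn2*, *Cxcl10*, and *Osmr*) summed to 1984 and 1233 CPM in the libraries labelled WT of days 7 and 10, where *Apcdd1* was highest, against 203 to 512 CPM in the other 6 libraries. The 5 microglial markers summed to 429 and 298 CPM in the same 2 libraries and to 177 to 247 CPM elsewhere. Their part in the *Apcdd1* values was not tested.

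*Sfrp1* and *Dkk3* encode secreted proteins. Sfrp1 binds Wnt ligands away from their receptors, and Dkk3 is a relative of the Lrp5/6-binding Dickkopf inhibitors whose action on Wnt signaling differs between settings. *Sfrp1* (chr8:23411502-23449632, plus strand) measured 16.5, 13.9, and 12.7 CPM on days 7, 10, and 14 with the label WT and 11.8, 11.96, and 17.4 CPM in those labelled TRPA1-KO, beside 12.99 and 18.6 CPM after sham. The labels traded places over the days, and over all 3 days the log2 difference was 0.077 (95% interval -0.32 to 0.47, limma p = 0.67; exact permutation p = 0.6). *Dkk3* (chr7:112116017-112159057, minus strand) measured 383, 453, and 452 CPM in the libraries labelled WT and 451, 441, and 418 CPM in those labelled TRPA1-KO, and its log2 difference of -0.027 had the narrowest interval of the 10 genes (-0.23 to 0.18).

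*Axin2*, a scaffold of the complex that degrades beta-catenin and a general Wnt target, measured 25.5, 29.2, and 34.1 CPM on days 7, 10, and 14 with the label WT. With the label TRPA1-KO it measured 29.3, 31.7, and 26.4 CPM, and the sham libraries held 32.9 CPM (WT) and 30.1 CPM (TRPA1-KO). The gene lies at chr11:108920349-108950783 on the plus strand, with Gm11670 antisense to it. The groups overlapped, and the log2 difference of 0.017 had a 95% interval of -0.26 to 0.29 (limma p = 0.89; exact permutation p = 1). *Nkd1*, an inhibitor that binds Dishevelled and is induced by Wnt signaling (chr8:88521354-88594884, plus strand), measured 13.3, 17.6, and 15.7 CPM in the libraries labelled WT and 18.8, 17.3, and 12.4 CPM in those labelled TRPA1-KO, beside 12.8 and 17.8 CPM after sham. Its log2 difference was -0.043 (95% interval -0.43 to 0.35, limma p = 0.81; exact permutation p = 0.9).

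*Lef1* and *Tcf7l2* encode DNA-binding partners of beta-catenin, Lef1 in brain endothelium among other cells and Tcf7l2 in differentiating oligodendrocytes and thalamic neurons among others. *Lef1* (chr3:131110471-131224356, plus strand) measured 6.14, 6.18, and 4.17 CPM on days 7, 10, and 14 with the label WT and 4.01, 6.30, and 5.51 CPM in those labelled TRPA1-KO. The sham libraries held 4.46 and 5.08 CPM, and the groups overlapped, with a log2 difference of 0.051 (95% interval -0.44 to 0.54, limma p = 0.822; exact permutation p = 0.7). *Tcf7l2* (chr19:55741820-55933654, plus strand) measured 5.34, 4.16, and 3.62 CPM in the libraries labelled WT and 4.45, 5.55, and 6.35 CPM in those labelled TRPA1-KO, beside 4.46 and 3.93 CPM after sham. Its values were lower on later days with the label WT and higher on later days with the label TRPA1-KO, and they rest on 60, 33, and 33 reads against 40, 52, and 61 reads. The log2 difference over all 3 days was -0.27 (95% interval -0.73 to 0.19, limma p = 0.227; exact permutation p = 0.2).

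**Figure D3:**
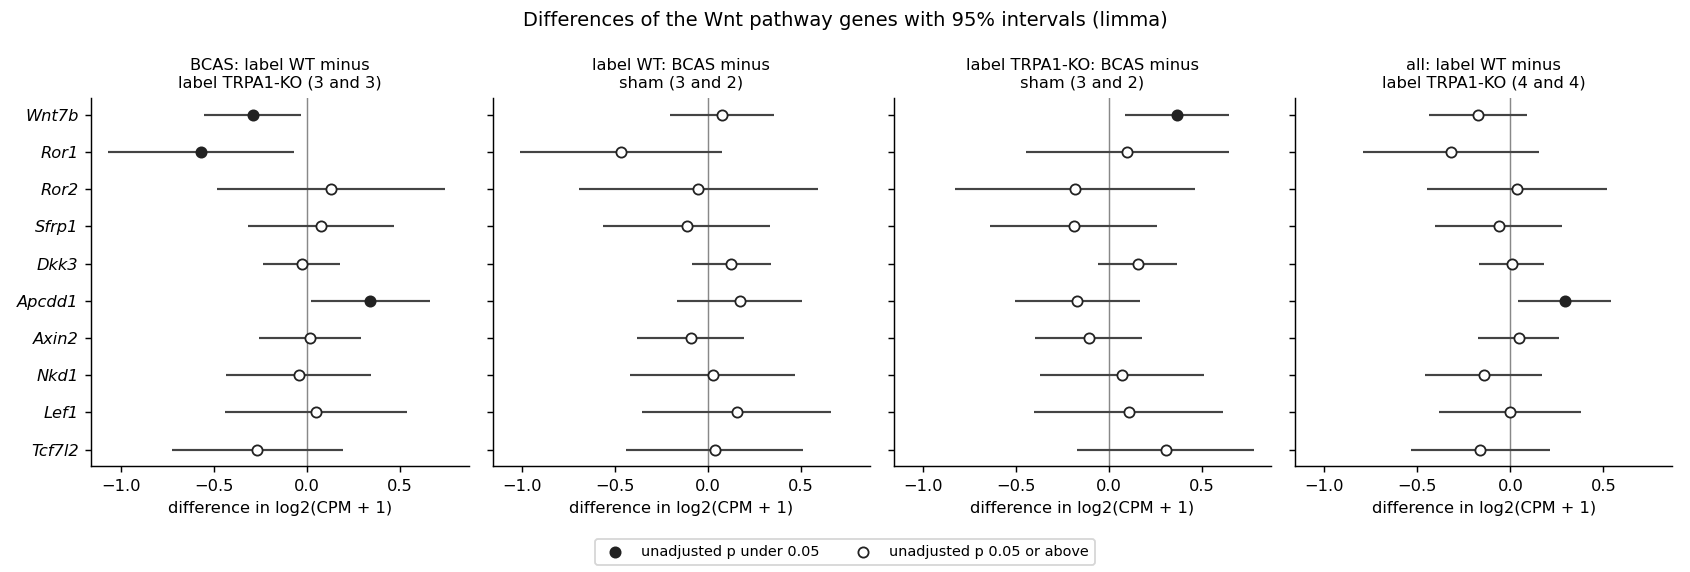
Difference in log2(CPM + 1) of each gene in the 4 comparisons, with 95% intervals from limma (filled, unadjusted p under 0.05; open, above). *Wnt7b* (-0.29), *Ror1* (-0.57), and *Apcdd1* (0.34) are filled between the labels after BCAS, *Wnt7b* (0.37) in the BCAS libraries labelled TRPA1-KO against sham, and *Apcdd1* (0.29) between the labels over all libraries.

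The comparisons with sham set the BCAS libraries of each label beside the same 2 sham libraries, 1 of each label and both from day 14, as 1 group. Label and day are therefore mixed with the operation in these comparisons. With the label WT, none of the 10 genes had an unadjusted limma p under 0.05, where 5.45% of all genes did, and none passed after adjustment (0% of all genes with limma; DESeq2 called 24 genes). *Ror1* had the largest difference (log2 -0.47, SE 0.25, limma p = 0.0846, adjusted p = 0.911; exact permutation p = 0.3), and without the day 7 library it was -0.63, with an unadjusted limma p under 0.05. *Dkk3*, at 430 ± 40.1 CPM (SD, n = 3) against 393 ± 20.7 CPM (SD, n = 2) after sham, had a log2 difference of 0.13 (limma p = 0.218; exact permutation p = 0.3), which was 0.21 without the same library, with an unadjusted limma p under 0.05. *Apcdd1* had a log2 difference of 0.17 (95% interval -0.16 to 0.51).

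With the label TRPA1-KO, only *Wnt7b* had an unadjusted limma p under 0.05, where 2.74% of all genes did, 1.07% in the direction of higher after BCAS, and none of the 10 passed after adjustment (0.00552% of all genes did). Its mean was 24.9 ± 2.82 CPM (SD, n = 3) after BCAS against 19.1 ± 1.77 CPM (SD, n = 2) after sham, and the log2 difference was 0.37 with an SE of 0.13 (limma p = 0.015, adjusted p = 1; exact permutation p = 0.2, with 0.1 the smallest possible). All 3 BCAS libraries were above both sham libraries. Without the sham library labelled TRPA1-KO, the lowest of all 8, the log2 difference was 0.28, and without the day 14 BCAS library it was 0.29, in both cases with an unadjusted p above 0.05. *Dkk3* also did not overlap with sham (437 ± 16.9 CPM, SD, n = 3), with a log2 difference of 0.15 (limma p = 0.14; exact permutation p = 0.2), and 18.6% of all genes did not overlap. *Apcdd1* had a log2 difference of -0.17 (95% interval -0.51 to 0.16), which was -0.33 without the day 14 library, with an unadjusted limma p under 0.05, and *Tcf7l2* had one of 0.30 (limma p = 0.189; exact permutation p = 0.3).

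Striatal and oligodendrocyte marker sums were higher in both sham libraries than in any BCAS library. The 6 striatal projection neuron markers summed to 1014 and 1376 CPM after sham and to 525 to 962 CPM after BCAS. All 6 in the comparison for the label WT and 5 in the one for TRPA1-KO had an unadjusted limma p under 0.05, beside 5.45% and 2.74% of all genes. The myelinating oligodendrocyte markers summed to 10170 and 11386 CPM after sham and to 8259.5 to 9419 CPM after BCAS. With either label, 2 of the 5 had an unadjusted limma p under 0.05. With the label TRPA1-KO, *Mog* (log2 difference -0.73, adjusted p = 0.0461, limma) was the only gene of all tested that passed after adjustment. With the label WT its difference was -0.22 (adjusted p = 0.895, limma). The library with the highest striatal sum, sham labelled TRPA1-KO, was the one with the lowest *Wnt7b* and *Dkk3*. The library with the lowest striatal sum, BCAS day 7 labelled WT (525 CPM), was also low in both genes. It held 19.3 CPM of *Wnt7b* and 383 CPM of *Dkk3*, below the medians over the 8 libraries (20.8 and 430 CPM). The library with the next-lowest striatal sum, BCAS day 7 labelled TRPA1-KO (607 CPM), was above both medians. It held 22.0 CPM of *Wnt7b* and 451 CPM of *Dkk3*. The part of these markers in the *Wnt7b* and *Dkk3* values was not tested.

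On day 14, where each label had both operations, *Tcf7l2* measured 3.62 CPM after BCAS and 4.46 CPM after sham with the label WT, and 6.35 and 3.93 CPM in those labelled TRPA1-KO. *Nkd1* lay the other way, at 15.7 and 12.8 CPM in the libraries labelled WT and 12.4 and 17.8 CPM in those labelled TRPA1-KO. *Sfrp1* differed between the sham libraries (12.99 and 18.6 CPM) about as much as between the day 14 BCAS libraries (12.7 and 17.4 CPM). With 1 library in each place, these differences have no replicate check.

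Over all 8 libraries, with 4 of each label, *Apcdd1* was the only member with an unadjusted limma p under 0.05, where 3.94% of all genes passed, 2.11% in the direction of higher with the label WT, and it did not pass after adjustment (0.0497% of all genes did). Its mean was 31.8 ± 3.06 CPM (SD, n = 4) with the label WT and 25.9 ± 4.32 CPM (SD, n = 4) with the label TRPA1-KO, a log2 difference of 0.29 with an SE of 0.11 (limma p = 0.0261, adjusted p = 0.995; exact permutation p = 0.114, with 0.0286 the smallest possible). Without 1 of the 4 BCAS libraries of days 7 and 10, its unadjusted limma p was above 0.05. *Ror1* (log2 -0.32, exact permutation p = 0.286) and *Wnt7b* (-0.17, exact permutation p = 0.257) had sham libraries in the opposite order to their BCAS libraries. Without the sham library labelled WT the *Ror1* difference was -0.49, and without the sham library labelled TRPA1-KO the *Wnt7b* difference was -0.29, both with an unadjusted limma p under 0.05.

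The order of the labels was opposite on days 7 and 14 for 8 of the 10 genes, and for 58.9% of all genes tested. *Apcdd1*, *Sfrp1*, *Lef1*, *Tcf7l2*, and *Ror2* were higher with the label WT on day 7 and lower on day 14, whereas *Axin2*, *Nkd1*, and *Dkk3* were lower on day 7 and higher on day 14. *Wnt7b* and *Ror1* were lower with the label WT on all 3 days. The difference in slope over days 7 to 14 was fitted over the 6 BCAS libraries as the product of label and day, a test added after the data were seen. *Apcdd1* (-0.11 log2 units per day, SE 0.036, adjusted p = 0.151), *Sfrp1* (-0.13, adjusted p = 0.219), *Nkd1* (0.11, adjusted p = 0.285), and *Axin2* (0.080, adjusted p = 0.282) had an unadjusted p under 0.05. The same limit was passed by 15.7% of all genes, a larger share than in the comparisons above, and none of the 4 passed after adjustment, where 2.09% of all genes did. *Tcf7l2* (-0.12, adjusted p = 0.394), *Lef1* (-0.12, adjusted p = 0.456), and *Dkk3* (0.048, adjusted p = 0.367) did not pass the unadjusted limit. Cell type markers had different slopes in the same libraries. All 6 reactive astrocyte markers and all 5 microglial markers had a more negative slope with the label WT at an unadjusted p under 0.05, and 4 of each list passed after adjustment, among them *Vim* (-0.59, adjusted p = 7.41e-05, limma) and *Csf1r* (-0.23, adjusted p = 0.000393, limma). Of the 6 cortical excitatory neuron markers, 5 had a more positive slope at an unadjusted p under 0.05, and 1 passed after adjustment. Their part in the slopes of the 10 genes was not tested. Without the day 14 library labelled TRPA1-KO none of the 10 passed the unadjusted limit, and 838 genes in all did instead of 2853.

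**Figure D4:**
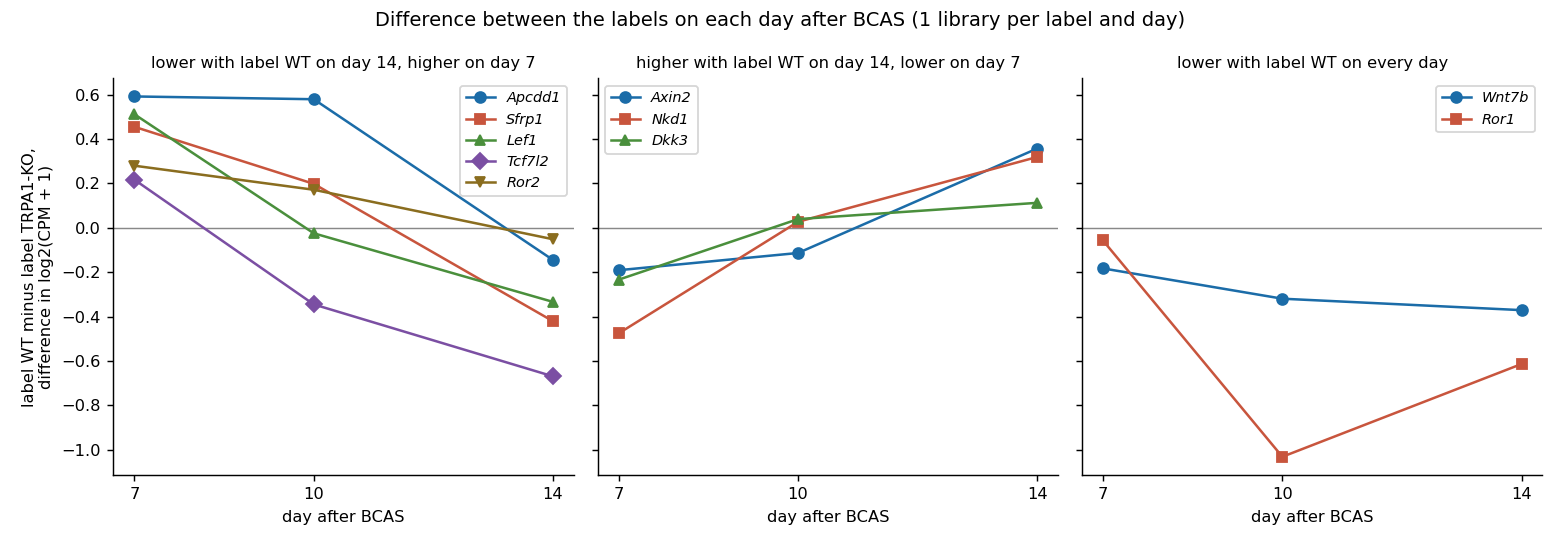
Label WT minus label TRPA1-KO in log2(CPM + 1) on days 7, 10, and 14 after BCAS, 1 line per gene and 1 library per label and day, so no error can be drawn. *Apcdd1* goes from 0.59 on day 7 to -0.14 on day 14 and *Tcf7l2* from 0.22 to -0.67, while *Nkd1* goes from -0.48 to 0.32.

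Another 94 Wnt pathway genes could be tested, and few had an unadjusted p under 0.05. Between the labels after BCAS, 1 was higher and 5 were lower with the label WT at an unadjusted p under 0.05, which is 6.38% of them beside 4.2% of all genes, and none passed after adjustment. *Sfrp5*, a secreted inhibitor, was higher (2.103 ± 0.910 against 0.543 ± 0.306 CPM, SD, n = 3 each; log2 difference 0.99, adjusted p = 0.983). *Rspo1*, an R-spondin that amplifies Wnt signals, was lower (3.39 ± 0.530 against 5.31 ± 0.884 CPM, SD, n = 3 each; -0.52, adjusted p = 0.983). The ligands *Wnt4* (-0.45), *Wnt16* (-0.40), and *Wnt9a* (-0.31) and the beta-catenin co-factor *Pygo2* (-0.21), all at an adjusted p of 0.983 (limma), were also lower. The sham libraries, given as WT and TRPA1-KO, lay the other way for *Wnt4* (13.1 and 11.4 CPM), *Wnt16* (1.17 and 0.0959 CPM), and *Wnt9a* (14.1 and 11.8 CPM). The same held for *Rspo1* (2.895 and 2.685 CPM) and *Sfrp5* (0.704 and 1.15 CPM), but not for *Pygo2* (40.3 and 40.7 CPM). *Sfrp5* and *Wnt16* rest on few reads, 3 to 25 and 3 to 10 per BCAS library.

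By role, 3 of 17 ligands, 1 of 8 genes of the R-spondin axis, 1 of 11 secreted inhibitors, and 1 of 10 TCF factors and co-factors were among these 6 genes. None of 17 receptors and co-receptors, 15 genes of signal transduction, 7 other feedback and target genes, or 9 planar polarity genes was. The median log2 difference of the 94 genes was -0.036, and 38 were above 0 and 56 below, where 50.3% of all genes lay above 0.

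**Figure D5:**
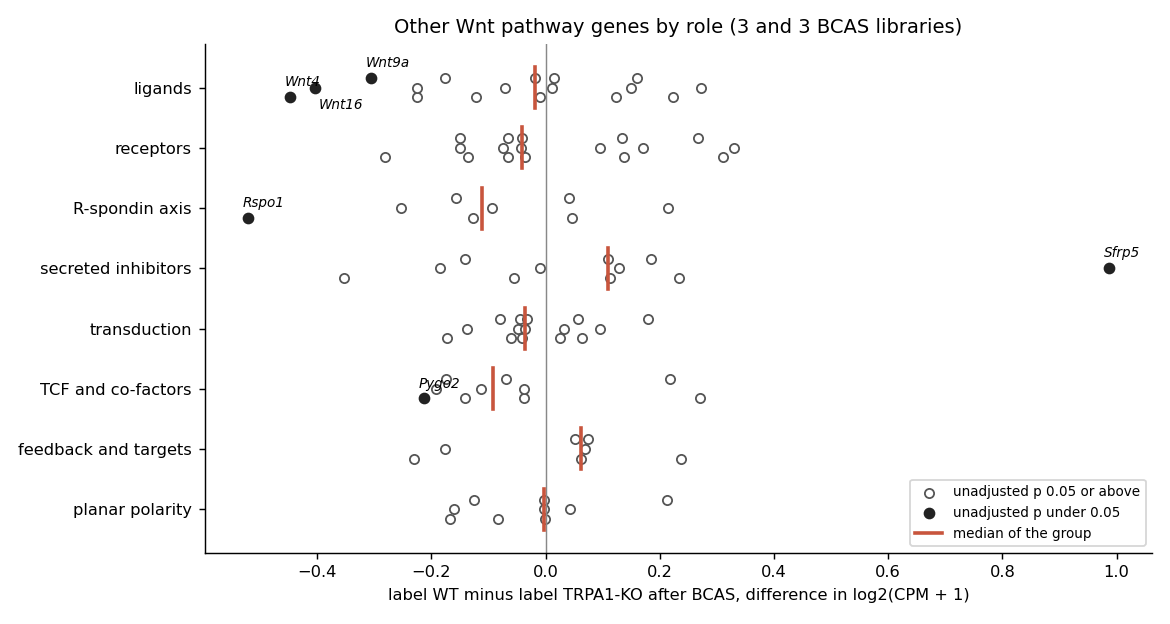
Difference in log2(CPM + 1) between the labels after BCAS for the 94 other Wnt pathway genes, grouped by role (points, genes; filled, unadjusted p under 0.05; red bars, group medians; vertical offsets carry no meaning). The 6 filled genes are *Sfrp5* (0.99), *Rspo1* (-0.52), *Wnt4* (-0.45), *Wnt16* (-0.40), *Wnt9a* (-0.31), and *Pygo2* (-0.21).

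Against sham, 4 of the 94 genes had an unadjusted p under 0.05 with the label WT, which is 4.26% beside 5.45% of all genes. *Sfrp5* (0.66, adjusted p = 0.895), the receptor *Fzd8* (0.45, adjusted p = 0.911), and the repressor-type factor *Tcf7l1* (0.54, adjusted p = 0.911) were higher, and the ligand *Wnt3* (-0.49, adjusted p = 0.895) was lower. With the label TRPA1-KO there were 3, which is 3.19% beside 2.74% of all genes. *Rspo1* (0.73, exact permutation p = 0.1) and *Wnt9a* (0.33, exact permutation p = 0.1) were higher, and *Lgr5*, a receptor for R-spondins (-0.58, exact permutation p = 0.1), was lower. An exact permutation p of 0.1 is the smallest that 3 against 2 libraries allows. *Rspo1* measured 2.79 ± 0.148 CPM (SD, n = 2) after sham, below each of the 3 BCAS libraries of that label. In the same comparison, 18.6% of all genes did not overlap. Over all libraries there were 4, which is 4.26% beside 3.94% of all genes. *Sfrp5* (0.66) was higher and *Apc2* (-0.14), *Pygo2* (-0.16), and *Tle2* (-0.20) were lower with the label WT, each at an adjusted p of 0.995 (limma). None of these passed after adjustment.

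Promoter sequence is shown for the starts of members that carry the TCF/LEF word, since these factors are the pathway's route to its targets. RefSeq windows (GRCm38.p6) of the 250 bases before a transcript start were at hand for 6 members (*Axin2*, *Lef1*, *Tcf7l2*, *Nkd1*, *Ror1*, and *Ror2*), with 10 windows in all. The word CTTTGAA was searched on both strands, as were its close relatives CTTTGAT, then CTTTGTA, and last CTTTGTT. They were found in 2 of the 10 windows and in 14.8% of all 32851 windows of that length, so the word is common by itself. The matching windows belong to an internal start of *Lef1* (chr3:131156044-131156293, plus strand) and one of *Tcf7l2* (chr19:55895071-55895320, plus strand), neither of which overlaps an annotated exon. The match, in capitals, is CTTTGTA read on the minus strand in *Lef1* and CTTTGTT on the plus strand in *Tcf7l2*, starting 147 and 14 bases before the start.
Lef1: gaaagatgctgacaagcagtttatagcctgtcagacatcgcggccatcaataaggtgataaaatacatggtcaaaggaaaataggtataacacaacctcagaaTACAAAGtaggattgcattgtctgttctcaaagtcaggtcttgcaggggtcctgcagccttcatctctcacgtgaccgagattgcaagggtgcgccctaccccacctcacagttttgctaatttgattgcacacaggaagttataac
Tcf7l2: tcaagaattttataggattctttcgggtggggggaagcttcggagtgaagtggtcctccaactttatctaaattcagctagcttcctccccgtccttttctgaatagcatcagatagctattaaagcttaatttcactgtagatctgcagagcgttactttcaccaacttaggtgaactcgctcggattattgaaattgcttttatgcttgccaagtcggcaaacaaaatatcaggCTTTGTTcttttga
A match describes the letters only. The library data do not show which start the reads of the 2 genes came from.

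Genes with the most similar pattern over the 8 libraries were sought by Pearson correlation of log2(CPM + 1) among genes averaging 10 CPM or more. *Tmco6* (r = 0.98), *Itih5* (0.95), and *Pag1* (0.93) were closest to *Apcdd1*, and *Zc3h13* (0.98), *Trappc11* (0.96), and *Spred1* (0.96) to *Axin2*. *Arl4a* (0.95), *AI504432* (0.95), and *Nudt13* (0.93) were closest to *Tcf7l2*, and *Coil* (0.94), *Gemin4* (0.94), and *Pabpn1* (0.94) to *Ror1*. Over 10743 other genes, 20 reached an r of 0.9 with *Apcdd1*. Among so many genes and with n = 8 libraries, such values describe these libraries only.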

How the data were processed

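Per the study's methods and the submitters' processing notes, polyadenylated RNA was made into libraries with a NEBNext Ultra kit and sequenced on a NovaSeq. The authors' aligner was HISAT (version 2.1.0, genome GRCm38), their counter the subread package (version 2.0.1), and their normalization that of edgeR (version 3.34.1). The gene annotation, the strand setting, and any gene filter are not given in the sources used here. The deposited signal is the authors' read counts divided by each library's effective size and scaled to CPM, not on a log scale. In each library 100% of the values were whole multiples of 1 read's value (tolerance 0.01), so whole reads were recovered. Intervals and floors cover counting error only.

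Libraries were grouped by their deposited labels. Nothing marks further replicates, and the p-values measure the spread between days and animals together. The test was limma (version 3.58.1 in R 4.3.3, trended eBayes) on log2(CPM + 1), over the 18123 of 25239 genes that averaged 0.1 CPM or more. The differences are on this scale, which understates the change of low genes. P-values were two-sided, unadjusted where not called adjusted, and adjusted by the Benjamini-Hochberg method over all genes tested. The labels after BCAS were compared over the 6 BCAS libraries, the comparisons with sham used 1 fit over all 8 libraries with both sham libraries as 1 group, and all libraries were compared by label. Single genes were also tested with two-sided exact permutation tests of the difference of means. Alternatives on recovered reads were the quasi-likelihood test of edgeR (version 4.0.16) and DESeq2 (version 1.42.0). The limma scripts were tested on simulated data. The difference in slope was added after the data were seen. Further settings tried were the pseudocount 0.1, no filter on low values or one of 1 CPM, plain library sizes, limma's robust option, day as a replicate block, other sets of libraries, and each library left out in turn.

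The 10 genes and all gene lists were chosen with earlier results of these data known. All 10 genes are named, other Wnt genes where the unadjusted limma p was under 0.05 (at most 5 per comparison by smallest p, and also *Wnt9a* between the labels, named after its values were seen), and marker genes where their list moved with a member. Of 100 other Wnt genes on the list, 99 were in the table and 94 were tested. Marker lists named in the text are those that moved with a member, and 16 were summed in all, the oligodendrocyte list without a marker that is not reported here. Exon lengths and positions come from GENCODE M21 (GRCm38) and promoter windows from RefSeq GRCm38.p6.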

Additional observations from a re-analysis of the deposited data

Results flagged for a closer look

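The difference between the labels in slope over days 7 to 14 after BCAS had an unadjusted p under 0.05 for 4 of the 10 genes, by the test of label times day over 6 libraries, and none passed after adjustment. The slope with the label WT minus that with the label TRPA1-KO, in log2(CPM + 1) per day, was -0.109 for *Apcdd1* (adjusted p = 0.151, limma) and -0.127 for *Sfrp1* (adjusted p = 0.219, limma). It was 0.111 for *Nkd1* (adjusted p = 0.285, limma) and 0.0804 for *Axin2* (adjusted p = 0.282, limma). With the label WT alone the slope was -0.037 for *Apcdd1* and -0.0493 for *Sfrp1*, and with the label TRPA1-KO alone it was 0.0722 and 0.0773. For *Nkd1* the slopes were 0.0287 and -0.0826, and for *Axin2* 0.0577 and -0.0227, in the same order. Each slope rests on 3 libraries, and the share of all genes with an unadjusted p under 0.05 was 15.7%. Without the day 14 library labelled TRPA1-KO, 0 of the 10 genes had an unadjusted p under 0.05. In the same test 4 of 6 reactive astrocyte and 4 of 5 microglial markers passed after adjustment, all with a more negative slope with the label WT, and their part in the 4 slopes was not tested.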

How the results depend on the processing

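The 10 genes had 351 alternative values between them, of which 292 kept the sign and the side of an unadjusted p of 0.05, 38 kept the sign and lost that p, 7 kept it and gained that p, and 14 turned sign. The sign turned only where 1 library was left out. Between the labels after BCAS, the log2 difference then ranged from -0.0861 to 0.117 for *Axin2*, from -0.103 to 0.207 for *Lef1*, from -0.213 to 0.0703 for *Nkd1*, from -0.119 to 0.366 for *Ror2*, from -0.0215 to 0.248 for *Sfrp1*, and from -0.0686 to 0.0524 for *Dkk3*. The cause was not tested.

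Of the 10 genes, 3 had an unadjusted p under 0.05 between the labels after BCAS, and with DESeq2 0 did. Among all genes in that comparison, 3 had an adjusted p under 0.05, against 1 with no filter on low values, 1 with plain library sizes, 5 with limma's robust option, 17 with DESeq2, 2 with edgeR, and 0 with all 8 libraries in 1 fit. Against sham with the label WT, DESeq2 gave 24 genes with an adjusted p under 0.05 where limma and edgeR gave 0, and with the sham library of the same label only 359 genes instead of 988 had an unadjusted p under 0.05. Against sham with the label TRPA1-KO, DESeq2 gave 254 genes with an unadjusted p under 0.05 instead of 496 and 4 with an adjusted one instead of 1, and no filter, plain library sizes, and the sham library of the same label only each gave 0. Over all libraries, the robust option gave 5 genes with an adjusted p under 0.05 instead of 9. For the difference in slope, edgeR gave 680 instead of 379. The causes were not tested.

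When 1 library was left out, the number of the 10 genes with an unadjusted p under 0.05 ranged from 0 (without either day 10 library) to 3 between the labels after BCAS, from 0 to 2 (without the day 7 library) against sham with the label WT, from 0 (without the sham library labelled TRPA1-KO) to 1 with the label TRPA1-KO, from 0 (without 1 of the 4 BCAS libraries of days 7 and 10) to 2 (without 1 sham library) over all libraries, and from 0 (without the day 14 library labelled TRPA1-KO) to 5 for the slopes. The genes with an unadjusted p under 0.05 ranged from 325 (without the day 10 library labelled TRPA1-KO) to 1846 (without the day 14 library labelled WT) between the labels after BCAS, from 357 (without the sham library labelled TRPA1-KO) to 2013 (without the day 14 library) against sham with the label WT, from 191 (without the sham library labelled TRPA1-KO) to 735 (without the day 14 library) with the label TRPA1-KO, and from 838 (without the day 14 library labelled TRPA1-KO) to 3431 for the slopes. Those with an adjusted p under 0.05 ranged from 1 to 29, 0 to 45, 0 to 1, and 0 to 368 in the same order, and from 6 to 14 over all libraries.

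Same-day libraries of the labels did not deviate together (correlations of their deviations from the group means of -0.1, 0.00513, and -0.263 over 10744 genes on days 7, 10, and 14), and the main fits did not pair by day. The order of the labels was opposite on days 7 and 14 for 58.9% of all genes. These correlations therefore cannot show whether same-day libraries share an effect. With the day as a replicate block, 1 gene instead of 3 had an adjusted p under 0.05 between the labels after BCAS and 632 instead of 761 an unadjusted one, and *Apcdd1* had an unadjusted p of 0.0668. Over all libraries, with operation and day as the replicate block, 0 of the 10 genes instead of 1 had an unadjusted p under 0.05.

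The depth limits *Ror1* and *Ror2* most, with 3 to 24 and 0 to 10 reads per library. Each BCAS group held 3 days with 1 library each, and day, animal, and library cannot be told apart within it.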
